A study of Mus musculus with 6 samples.

Results

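The genes described here are 48 interferon response and antigen presentation genes, measured among 23420 gene symbols in the embryonic mouse lacrimal gland bud. They were chosen by symbol from known interferon-stimulated genes after Xaf1 had been seen to rise in the Pea3 mutant in these same libraries, to ask whether that rise stood alone or came with a wider interferon response. All 48 symbols were present in the count tables. RNA-seq was carried out on lacrimal gland bud epithelium that had been cut out by laser capture at embryonic day E14.5 from mice of mixed background. The 3 control samples carried Le-Cre, a transgene that makes Cre recombinase in the ectoderm of the ocular surface. The 3 Pea3 TKO samples carried Le-cre together with Pea3-/-, Ermfl/fl and Er81fl/fl, so that Pea3 (Etv4) was absent from every cell of the embryo whereas Erm (Etv5) and Er81 (Etv1) were deleted only where Le-Cre acts. Le-Cre was common to both groups, and no sample with the 3 Pea3 family alleles but without Cre was analysed here. Nothing states that the 3 samples of a group came from separate embryos, so the p-values measure only the spread between these samples, which may be technical.

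Interferons are secreted proteins that cells release when they sense foreign or misplaced nucleic acid. They bind receptors on the cell surface, and the receptor-bound Janus kinases phosphorylate Stat proteins such as Stat2, which join Irf9 and enter the nucleus to bind the interferon-stimulated response element, a DNA site built around repeats of GAAA. The genes that carry it encode RNA sensors, antiviral enzymes, GTPases and the machinery that loads peptides onto class I molecules, and several encode the factors themselves. Xaf1 (XIAP-associated factor 1) is an interferon-stimulated gene whose product binds the apoptosis inhibitor Xiap.

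Promoter sequence was available for 36 of the 48 genes in the RefSeq table (GRCm38.p6), as windows from 250 bases before to 50 bases after each start site. The letters GAAANNGAAA, called ISRE-like here, were searched on both strands and were found in a window of 17 of the 36 genes (47.2%), against 3.99% of all 27025 genes with such a window and 3.39% of the 9732 of them that were tested for expression. The longer form GAAANNGAAACT, which is included in the first, was present in 9 of the 36 (25%) and in 0.303% of all genes. The promoters of genes that carried the longer form, and of B2m and Stat2 as examples of the shorter one, are shown to make the shared letters visible. Each runs 5′ to 3′ on the strand of its gene, and capitals mark the matched letters, which read TTTC in place of GAAA where the match lies on the opposite strand. In Stat2 the capitals run on into an overlapping match of GAAANGAAA, a closer pair described further down.

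Ifit1, chr19:34640760-34640838, + strand: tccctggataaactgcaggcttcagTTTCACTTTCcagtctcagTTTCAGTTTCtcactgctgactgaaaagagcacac
Ifit3, chr19:34583348-34583441, + strand: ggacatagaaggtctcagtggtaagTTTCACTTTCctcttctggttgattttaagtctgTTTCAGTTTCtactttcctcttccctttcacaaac
Gbp2, chr3:142620579-142620638, + strand: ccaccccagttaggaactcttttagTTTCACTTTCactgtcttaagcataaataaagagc
Gbp3, chr3:142559974-142560039, + strand: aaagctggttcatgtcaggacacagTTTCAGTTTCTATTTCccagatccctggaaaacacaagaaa
Oas1a, chr5:120907505-120907570, - strand: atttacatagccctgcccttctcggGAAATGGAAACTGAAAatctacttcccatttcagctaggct
Irgm1, chr11:48871410-48871475, - strand: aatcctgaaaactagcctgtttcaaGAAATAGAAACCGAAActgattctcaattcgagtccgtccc
Bst2, chr8:71537562-71537627, - strand: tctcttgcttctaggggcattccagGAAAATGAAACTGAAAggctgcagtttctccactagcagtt
Cxcl10, chr5:92349068-92349127, - strand: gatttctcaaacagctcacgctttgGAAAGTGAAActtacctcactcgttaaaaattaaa
B2m, chr2:122147523-122147582, + strand: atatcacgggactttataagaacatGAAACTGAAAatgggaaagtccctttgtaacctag
Stat2, chr10:128270251-128270315, + strand: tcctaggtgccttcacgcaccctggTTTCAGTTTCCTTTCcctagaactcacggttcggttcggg

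The window of Xaf1 held no GAAANNGAAA but a pair of GAAA with a single base between them, 10 bases after the start site, shown here because Xaf1 is the gene the question began with.
Xaf1, chr11:72301614-72301657, + strand: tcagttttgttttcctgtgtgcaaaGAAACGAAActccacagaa

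This closer pair, GAAANGAAA, was searched only after the Xaf1 promoter had been read, and it was present in 7 of the 36 genes (19.4%), Xaf1 among them, and in 3.7% of all genes. A GAS-like TTCNNNGAA, the kind of site that Stat dimers bind, was present in 9 of the 36 (25%) and in 9.55% of all genes. CCGGAA, a form of the site that ETS factors such as the Pea3 family bind, was present in 5 of the 36 (13.9%), against 16.7% of all genes and 30.8% of the tested genes with a window. Other forms of the ETS site were not searched, so these shares do not cover all ETS sites. Among the genes described below as higher in Pea3 TKO, 14 of 29 with a window held the ISRE-like letters, and 1 of 4 did among those that were tested but did not pass. A match is a string of letters and not a shown binding site, and the genes were picked as interferon-stimulated, for which this motif is known. Usp18, Oas2, Mx1, Mx2, Dhx58, Iigp1, Rtp4, Parp9, Parp14, Tap2, Nlrc5 and Zbp1 had no window.

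Total counts ran from 14194775 to 17860140 per sample, so that 3 counts correspond to between 0.169 and 0.21 counts per 1000000 (CPM). All levels below are CPM after TMM normalization, listed in the order control samples 1, 2 and 3 and then Pea3 TKO samples 1, 2 and 3, and means carry the SD of n = 3. The targeted genes were lower in Pea3 TKO, with Etv4 at 184.2, 129.4 and 139.7 against 10.9, 19.1 and 28.4 CPM, Etv5 at a log2 fold change of -2.93 (SE 0.24, adjusted p = 6.63e-05) and Etv1 at -1.74. The epithelial markers Epcam and Cdh1 were abundant in all 6 libraries, but the epithelial list was not level between the groups. Of its 7 markers, 4 were higher in Pea3 TKO at an adjusted p under 0.05, among them Cdh1 (log2 fold change 1.09, SE 0.12), Pax6 and Krt8. Another 2 were lower, among them Sox10 (-2.43, SE 0.24), and Epcam did not pass (-0.17, SE 0.11). The shares over all tested genes were 13.6% higher and 11.3% lower. The libraries differed in further ways that touch the results. The summed level of 4 Y-linked genes was 135.7 to 174.7 CPM in the controls and 139 CPM in Pea3 TKO sample 3, but 0.44 and 0.21 CPM in Pea3 TKO samples 1 and 2, so that the controls and Pea3 TKO sample 3 were male and the other two female. Without Foxc1, 8 mesenchymal markers summed to 17.4, 24.0 and 112.4 CPM in the controls and to 331.3, 489.7 and 11.3 CPM in Pea3 TKO, with Col1a2, Col3a1 and Lum high in Pea3 TKO samples 1 and 2.

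Xaf1 (chr11:72301629-72313733, + strand, GENCODE M21 on GRCm38) had no read in any control sample and 167, 30 and 147 reads in the Pea3 TKO samples. In CPM its levels were 10.6, 2.10 and 8.63 in Pea3 TKO, a mean of 7.11 ± 4.45. Set against the limit of 3 counts over the 3 controls, Xaf1 was at least 120-fold higher in Pea3 TKO. Pea3 TKO sample 2 had the lowest level, yet it lay above all 3 controls. Because this rise is what led to the choice of genes, it is given as a description with no test. Of 33 genes within 1 Mb of Xaf1, 22 were tested, and 4 of them were higher and 4 lower in Pea3 TKO (18.2% each way), with a median log2 fold change of 0.16. Among all tested genes 13.6% were higher and 11.3% lower, and with 22 genes no difference from these shares is claimed. Xaf1 lies 29.5 Mb from Etv4 on the same chromosome, the gene that was null in the Pea3 TKO mice.

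The rise of Xaf1 came with that of most of the other 47 genes. By the quasi-likelihood test of edgeR, with Benjamini-Hochberg adjustment over all 13087 tested genes, 34 of the 47 were higher in Pea3 TKO at an adjusted p under 0.05, 6 were tested and did not pass, and 7 had too few counts to be tested. None was lower, whether at the adjusted threshold, at an unadjusted p under 0.05 or by DESeq2. Among all tested genes 13.6% were called higher and 11.3% lower, and 18.1% were lower at the unadjusted threshold. The low-count filter bears on the reading of these counts. It let 20 of the 40 tested genes through only with the help of the Pea3 TKO samples, so their being tested already depended on their level in the mutants, and their number is not read as support. The other 20 reached the cutoff of 0.628 CPM in the 3 controls alone. Of these, 18 were higher, against 12.6% of all genes that reached it in the controls, and their median log2 fold change was 1.73, whereas the median over all tested genes was 0.01. Over all 47, the 3 Pea3 TKO values lay above the 3 control values in 38 genes, below them in 0, and overlapped them in 9. Over the 40 tested genes they lay above in 36 and overlapped in 4, whereas 22.5% of all tested genes had groups that did not overlap in the upward direction. These 40 include the 20 that were tested only with the help of the mutants, so this number is not read as support either. Exact permutation of 3 samples against 3 cannot go below p = 0.10, so single genes rest on the fit across all genes. The 48 genes lay on 15 chromosomes, with 8 on chromosome 17 and 7 on chromosome 11.

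**Figure D1:**
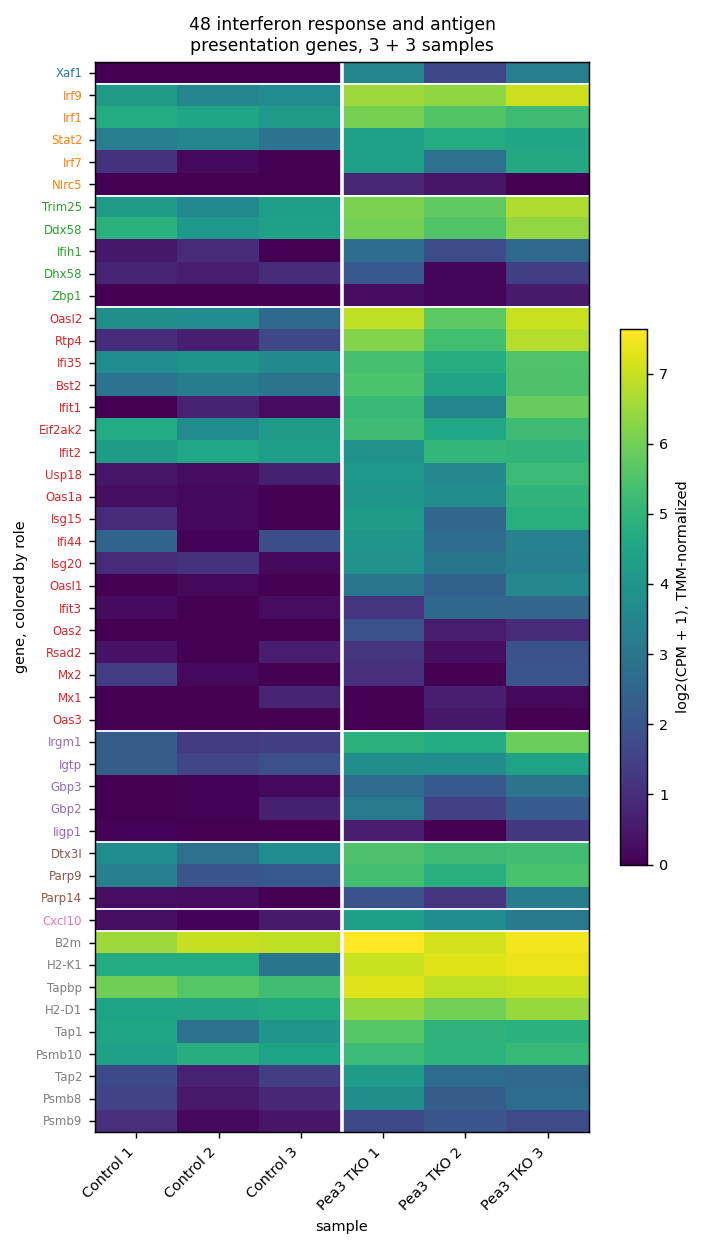
Level of each of the 48 genes (rows, grouped and colored by role) in each of the 6 samples (columns), as log2(CPM + 1) after TMM normalization, with lighter colors for higher levels. Most rows are darker in the 3 controls on the left than in the 3 Pea3 TKO samples on the right, and 34 of the 47 genes other than Xaf1 passed the test as higher.

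**Figure D2:**
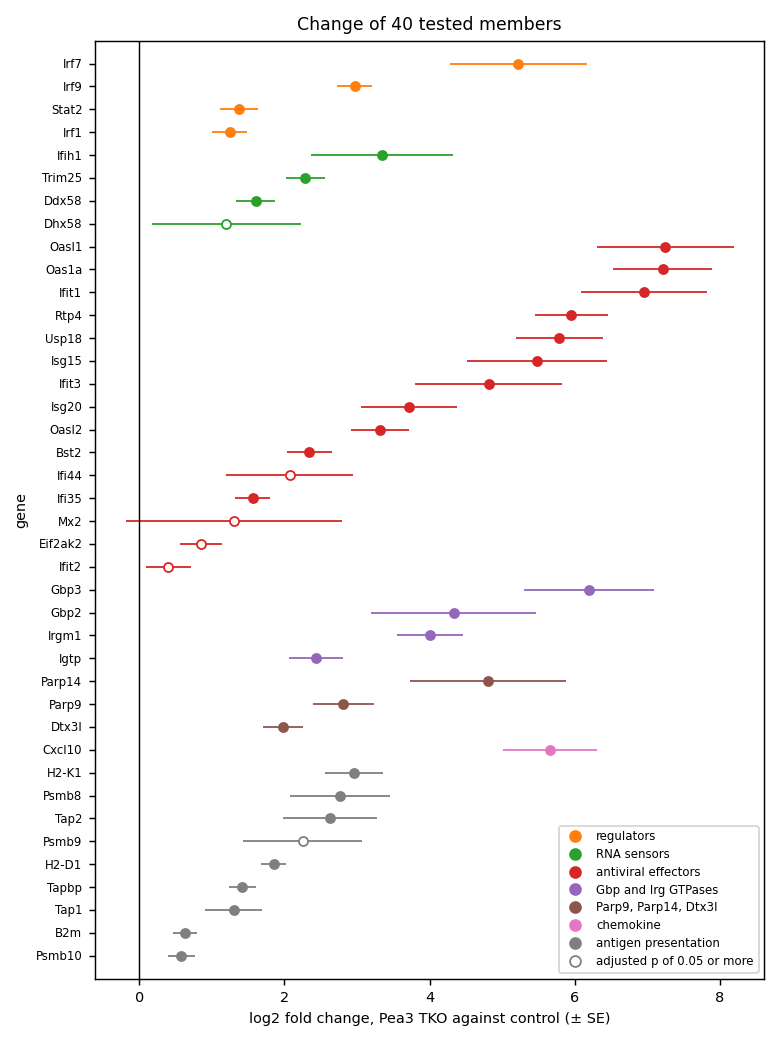
Log2 fold change of Pea3 TKO against control (horizontal axis, bars are the SE) for the 40 tested genes other than Xaf1, by role. Filled points are the 34 genes with an adjusted p under 0.05, which run from 0.58 for Psmb10 to 7.25 for Oasl1, and open points are the 6 that did not pass.

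The factors that carry an interferon signal to the nucleus were higher in Pea3 TKO. Irf9 (chr14:55603571-55610030), the DNA-binding partner of Stat2, stood at 16.3, 10.2 and 11.8 against 90.8, 80.8 and 128.7 CPM, with a log2 fold change of 2.97 (SE 0.24, adjusted p = 6.19e-05), the smallest p among the 47 genes. Stat2 (chr10:128270559-128292849) stood at 8.51, 10.7 and 6.44 against 19.6, 25.03 and 21.9 CPM, a log2 fold change of 1.37 (SE 0.26, adjusted p = 0.00509). Neither gene overlapped between the groups, and the gap was wider for Irf9. Irf7 (chr7:141262706-141266481), the factor that amplifies interferon production, was near the limit of detection in the controls at 1.13, 0.12 and 0 CPM and reached 19.8, 6.08 and 23.6 CPM in Pea3 TKO (log2 fold change 5.22, SE 0.94, adjusted p = 0.00405). Unlike Irf9, Stat2 and Irf1, it reached the low-count cutoff only with the help of the Pea3 TKO samples, so its call is not read as support. Irf1 (chr11:53770014-53778374), which responds chiefly to interferon gamma and drives the class I genes, stood at 24.8, 21.5 and 16.6 against 65.7, 46.4 and 36.9 CPM (log2 fold change 1.24, SE 0.24, adjusted p = 0.00579). Here Pea3 TKO sample 1 was the highest, in contrast to Irf7 and Irf9, which were highest in sample 3. Nlrc5, the class I transactivator, had no read in the controls and 12, 5 and 0 in Pea3 TKO, too few to be tested. Exons of Irf7 and Irf9 overlap those of Phrf1 and Rnf31 in the annotation, and whether reads were assigned by strand is not given in the sources used here.

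Upstream of these factors, most genes of the path did not pass. Of the 14 receptor, Janus kinase, Stat and feedback inhibitor genes listed outside the 48, all tested, 4 were higher, namely Stat3, Il10rb, Tyk2 and Ifngr1, and 1 was lower, Ptpn2, a phosphatase that acts on the Janus kinases. Among all tested genes 13.6% were higher and 11.3% lower, and 14 genes are few to set against these shares. Stat3 had a log2 fold change of 1.85 (SE 0.26), and Ptpn2 one of -0.75 (SE 0.11). The first receptor chain for the type I interferons, Ifnar1, was at 103.6, 122.5 and 129.1 against 99.3, 115.3 and 119.8 CPM (log2 fold change -0.09, SE 0.13, adjusted p = 0.672). Ifnar2 was at 0.11 (SE 0.16), and its levels overlapped between the groups too. Of the ligands themselves only Ifnk was detected. Of 11 interferon genes, 10, among them Ifnb1, Ifng and 5 Ifna genes, had no read in any of the 6 samples, and Ifnk had 0, 1 and 0 reads in the controls and 1, 7 and 8 in Pea3 TKO, too few to be tested. A count of 0 allows up to 0.21 CPM in the shallowest library, and RNA outside the captured epithelium was not measured.

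**Figure D3:**
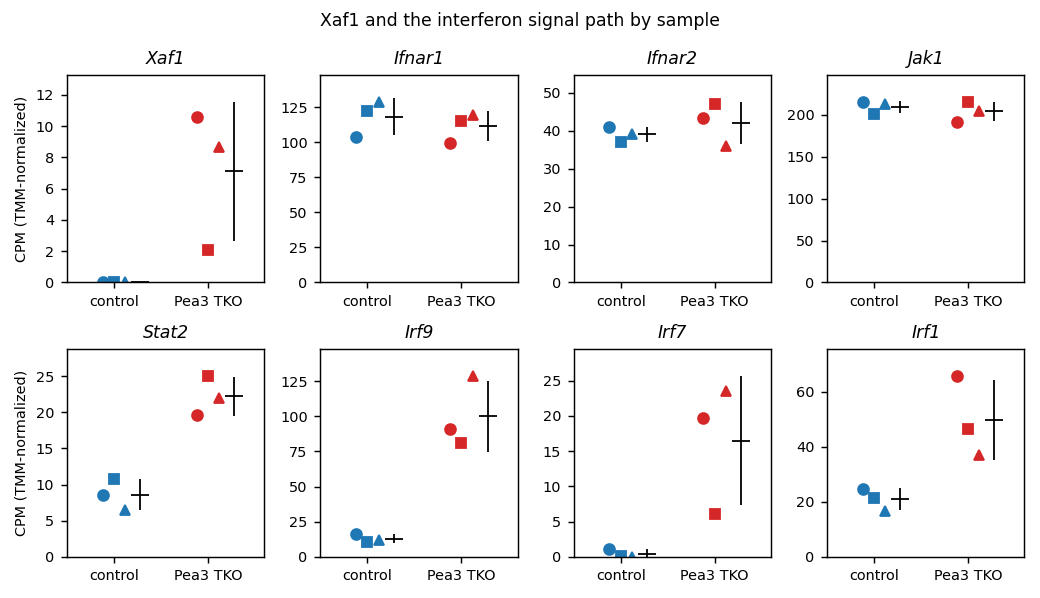
CPM after TMM normalization (vertical axis, one panel per gene, each with its own scale) of Xaf1 and 7 genes of the interferon signal path in 3 control (blue) and 3 Pea3 TKO (red) samples, where the circle, square and triangle are samples 1, 2 and 3 and the black bar is the mean ± SD. Ifnar1, Ifnar2 and Jak1 overlap between the groups, and the Pea3 TKO samples lie above the controls for Xaf1, Stat2, Irf9, Irf7 and Irf1.

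Of the 5 RNA sensors listed, 3 were higher, and of these only Ddx58 and Trim25 reached the low-count cutoff in the 3 controls alone. Ddx58 (RIG-I), which recognizes RNA with a 5′ triphosphate, stood at 28.5, 15.6 and 19.4 against 64.4, 46.2 and 83.3 CPM (log2 fold change 1.61, SE 0.27, adjusted p = 0.00276). Trim25, the ubiquitin ligase associated with RIG-I activation, stood at 16.4, 11.5 and 18.5 against 69.1, 53.4 and 104.0 CPM (log2 fold change 2.29, SE 0.27, adjusted p = 0.00051). Both were present in the controls and separated from them in every Pea3 TKO sample. Ifih1 (MDA5), a sensor of long double-stranded RNA, was scarcer, at 0.42 ± 0.44 CPM in the controls and 4.38 ± 1.76 CPM in Pea3 TKO (log2 fold change 3.35, SE 0.98, adjusted p = 0.0329), and it lost its call without control sample 1 or without any one Pea3 TKO sample. Dhx58 did not pass (1.20, SE 1.03, adjusted p = 0.436), with 1 read in Pea3 TKO sample 2, and Zbp1 was not tested. Of 24 other nucleic acid sensors and adaptors, 19 were tested, 5 of them were higher and 2 lower, against 13.6% and 11.3% of all tested genes. The higher ones included Adar, the enzyme that edits double-stranded RNA (log2 fold change 1.04, SE 0.22), and Myd88, the Toll-like receptor adaptor (0.87, SE 0.20). Traf3 fell by 1.003 on the log2 scale. The adaptors Mavs (0.20, SE 0.18) and Tmem173 (STING, 0.43, SE 0.18) did not pass, and the number called higher in this list ran from 1 without control sample 2 to 5 without control sample 1.

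The antiviral effectors held the largest fold changes, which fell on genes with few or no reads in the controls. In this group 11 of 19 were higher, against 13.6% of all tested genes. Of these 11, only Oasl2, Bst2 and Ifi35 reached the low-count cutoff in the 3 controls alone. The others were tested with the help of their level in the mutants, so their number is not read as support. The oligoadenylate synthetase family makes the messenger that activates RNase L. Oas1a (chr5:120896256-120907521) stood at 0.23, 0.12 and 0 against 14.9, 12.3 and 30.1 CPM (log2 fold change 7.21, SE 0.68, adjusted p = 0.000163). Oasl1 had 0, 2 and 0 reads in the controls and stood at 6.99, 4.20 and 10.98 CPM in Pea3 TKO, a ratio of summed counts of 186 with a 95% counting interval of 51.2 to 1550. Oasl2 was already present in the controls at 12.5, 11.8 and 5.07 CPM and reached 117.4, 51.0 and 124.9 CPM (log2 fold change 3.32, SE 0.40, adjusted p = 0.000577). All 3 genes were lowest in Pea3 TKO sample 2 among the mutants. The annotated exons of Oas1a share 40.9% of their 100-base stretches with Oas1g, so its reads may have been split between these genes or dropped. Oas2 and Oas3 were not tested, with no control read, and with 44, 7 and 16 reads for Oas2 in the 3 Pea3 TKO samples and reads for Oas3 in sample 2 alone.

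Ifit1 (chr19:34640871-34650009), which binds RNA without a methylated cap, stood at 0, 0.62 and 0.20 against 34.9, 10.3 and 56.9 CPM (log2 fold change 6.96, SE 0.87, adjusted p = 0.000654). Its neighbour Ifit3 also rose (log2 fold change 4.82, SE 1.01), although 31.7% of its 100-base stretches are shared with Ifit3b. Ifit2, in the same cluster and 32.8 kb from Ifit3, stood at 17.5, 22.9 and 18.1 against 13.9, 32.2 and 31.1 CPM, did not pass (log2 fold change 0.40, SE 0.31, adjusted p = 0.377) and was lower in Pea3 TKO sample 1 than in every control. The window of Ifit2 was 1 of those without the ISRE-like letters, whereas Ifit1 and Ifit3 each held 2 matches. Only 14 of the 29 called genes with a window held these letters, and Irf9 and Oasl1 were called without them. A link between the letters and the change in level was not tested. Rtp4, a chaperone that responds to interferon, stood at 0.96, 0.56 and 2.08 against 73.7, 39.2 and 109.3 CPM (log2 fold change 5.95, SE 0.50, adjusted p = 7.92e-05). The ubiquitin-like modifier Isg15 stood at 0.90, 0.12 and 0 against 17.1, 4.76 and 26.7 CPM (log2 fold change 5.48, SE 0.96, adjusted p = 0.00365). Usp18, the protease that removes Isg15 and restrains the type I receptor, rose alongside it, from 0.34, 0.19 and 0.59 to 15.7, 11.1 and 35.4 CPM (log2 fold change 5.79, SE 0.60, adjusted p = 0.000243). In all of these the 3 mutant samples kept the order sample 3, sample 1, sample 2 except for Ifit2 and Ifit3.

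Bst2 (tetherin), which holds budding virus at the cell surface, stood at 6.54, 8.29 and 6.63 against 43.3, 20.9 and 44.7 CPM (log2 fold change 2.34, SE 0.31, adjusted p = 0.000828). The exonuclease Isg20 stood at 0.90, 1.18 and 0.13 against 13.8, 6.78 and 9.10 CPM (log2 fold change 3.72, SE 0.66, adjusted p = 0.00388). Ifi35 stood at 12.2, 14.3 and 11.4 against 40.8, 26.2 and 45.1 CPM (log2 fold change 1.56, SE 0.24, adjusted p = 0.00181). Eif2ak2, Ifi44 and Mx2 were also tested without passing. Eif2ak2 (PKR), the kinase that halts translation, stood at 24.3, 11.9 and 17.3 against 37.3, 23 and 36.5 CPM (log2 fold change 0.86, SE 0.29, adjusted p = 0.0567), so control sample 1 lay above Pea3 TKO sample 2. Ifi44 did not overlap but varied widely among the controls, at 4.45, 0.06 and 2.54 CPM (log2 fold change 2.07, SE 0.87, adjusted p = 0.113). Mx2 had a log2 fold change of 1.30 (SE 1.49), and it read -0.03 without Pea3 TKO sample 3. Mx1, with 10 reads in control sample 3 alone and 8 and 2 in Pea3 TKO samples 2 and 3, and Rsad2 (viperin), at 0.28, 0 and 0.52 against 1.27, 0.21 and 2.70 CPM, were too low to test.

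The GTPases that attack the vacuoles of intracellular pathogens were higher in 4 of 5 cases, against 13.6% of all tested genes. Of these 4, only Irgm1 and Igtp reached the low-count cutoff in the controls alone. Irgm1 stood at 3.78, 1.43 and 1.69 against 29.1, 25.1 and 58.1 CPM (log2 fold change 4.01, SE 0.46, adjusted p = 0.000442), and Igtp at 3.72, 1.99 and 2.67 against 12.8, 12.4 and 20.3 CPM (2.43, SE 0.37, adjusted p = 0.00168). Gbp3 had 0, 1 and 2 reads in the controls and stood at 5.40, 3.29 and 6.64 CPM in Pea3 TKO, a ratio of summed counts of 85.3 with a 95% counting interval of 28.8 to 416. Gbp2 was at 0.22 ± 0.32 CPM in the controls and 4.38 ± 3.07 CPM in Pea3 TKO (log2 fold change 4.33, SE 1.14, adjusted p = 0.0216), a call that was lost without control sample 2 or Pea3 TKO sample 1. Iigp1 was not tested, with 1 control read. Exons of Igtp overlap those of Irgm2.

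The partners Parp9 and Dtx3l, which form a complex in ADP-ribosylation and ubiquitin transfer, lie head to head on chromosome 16 with starts 681 bases apart and overlapping exons, so without strand their reads cannot be told apart there. Dtx3l stood at 12.2, 5.98 and 12.03 against 44.3, 36.4 and 38.5 CPM (log2 fold change 1.98, SE 0.28, adjusted p = 0.00115). Parp9 stood at 8.96, 3.05 and 3.25 against 39.2, 26.6 and 42.1 CPM (2.81, SE 0.42, adjusted p = 0.00148). Parp14 was higher at lower counts (4.81, SE 1.07, adjusted p = 0.0108) and lost its call without Pea3 TKO sample 3. The chemokine Cxcl10, which attracts T cells, stood at 0.23, 0.06 and 0.46 against 18.9, 11.96 and 7.52 CPM (log2 fold change 5.66, SE 0.65, adjusted p = 0.000444). It was 1 of 4 called genes for which Pea3 TKO sample 3 was the lowest mutant. Parp14 and Cxcl10 reached the low-count cutoff only with the help of the Pea3 TKO samples, so their calls are not read as support. Cxcl9, a chemokine chiefly under interferon gamma, had no read in any sample.

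Of the 9 genes of class I antigen presentation, 8 were higher in Pea3 TKO than in control, against 13.6% of all tested genes. They ran from the proteasome subunits to the heavy chains. Among these 8, Psmb8 and Tap2 reached the low-count cutoff only with the help of the Pea3 TKO samples. The class I heavy chain H2-K1 (chr17:33996017-34000347) stood at 25.1, 25.1 and 6.76 against 125.9, 151.9 and 167.4 CPM (log2 fold change 2.96, SE 0.40, adjusted p = 0.000941). H2-D1 (chr17:35262730-35267499) stood at 20.6, 20.9 and 23.8 against 85.2, 63.8 and 86.3 CPM (1.85, SE 0.17, adjusted p = 0.000125). Control sample 3 was the lowest for H2-K1 but the highest control for H2-D1. Tapbp (tapasin), which holds the heavy chain at the peptide transporter, stood at 62.1, 48.2 and 37.8 against 150.9, 119.6 and 126.0 CPM (1.42, SE 0.19, adjusted p = 0.000837). B2m, the light chain of all class I molecules, stood at 91.1, 123.5 and 118.4 against 197.2, 138.3 and 178.1 CPM (0.63, SE 0.16, adjusted p = 0.022). Of these 4, B2m changed least and its Pea3 TKO sample 2 lay closest to the controls. Per kilobase of exon, B2m was the most abundant of the 48 genes in both groups, at 129 and 199 CPM per kb, while H2-K1 went from 6.47 to 50.5 CPM per kb and H2-D1 from 8.43 to 30.4 CPM per kb.

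The peptide transporter genes Tap1 (log2 fold change 1.30, SE 0.40, adjusted p = 0.0382) and Tap2 (2.63, SE 0.65, adjusted p = 0.0166) were higher, as were the immunoproteasome subunits Psmb8 (2.77, SE 0.68, adjusted p = 0.0169) and Psmb10 (0.58, SE 0.19, adjusted p = 0.047). Psmb9 did not overlap between the groups, at 1.07, 0.12 and 0.39 against 2.29, 3.01 and 2.41 CPM, but missed the threshold (2.25, SE 0.82, adjusted p = 0.0713). The starts of Psmb9 and Tap1 lie 211 bases apart on opposite strands and their exons overlap. None of the constitutive subunits that these replace, Psmb5, Psmb6 and Psmb7, passed by edgeR or DESeq2, with log2 fold changes of -0.29 to -0.10 and 1 of them lower at an unadjusted p under 0.05. The weaker calls did not hold when certain single samples were left out, although the groups did not overlap for these genes. Their log2 fold changes stayed above 0 in all 14 alternatives, at 0.51 to 0.71 for Psmb10 and 0.50 to 0.76 for B2m. Tap1 lost its call without control sample 2 or 3 or Pea3 TKO sample 1 or 2, Tap2 without control sample 2 or Pea3 TKO sample 1, and Psmb8 without control sample 2 or 3 or Pea3 TKO sample 1. B2m lost it without control sample 3 or Pea3 TKO sample 1 or 3, and Psmb10 without any one of the 6.

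Other class I genes were not called higher. Of 14 listed, 8 were tested, 0 were higher and 2 were lower by edgeR, whereas 1 was higher at an unadjusted p under 0.05 and 0 by DESeq2. Among all tested genes 13.6% were higher and 11.3% lower. With 8 tested genes each, this list and the class II list below are too small to be set apart from these shares. H2-T23, a nonclassical class I gene in the same region, fell from 132.9, 99.1 and 103.8 to 37.8, 28.5 and 25.7 CPM (log2 fold change -1.87, SE 0.19, adjusted p = 0.000211), and the chaperone Pdia3 fell by 0.41 on the log2 scale, a call lost without control sample 2 or 3 or Pea3 TKO sample 2. Of 10 class II presentation genes, 8 were tested, 0 were higher by edgeR or DESeq2, 1 was higher at an unadjusted p under 0.05 and 1 was lower. The lower one was H2-Eb1, at 12.7, 11.3 and 6.63 against 0.57, 1.40 and 1.29 CPM (log2 fold change -3.23, SE 0.49, adjusted p = 0.00174). Cd74, the class II invariant chain, was at -0.04 (SE 0.29). The genes of this region are highly variable between mouse strains, the mice were of mixed background, and the counts are per reference gene, so a difference of strain and one of level cannot be told apart for H2-K1, H2-D1, H2-T23 and H2-Eb1. The annotated exons of H2-D1 share 3.59% of their 100-base stretches with other genes, and those of H2-K1 0.957%.

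Of the interferon-stimulated genes outside the 48, more were higher than lower. A further list of 57 was drawn up with the results for the first genes known. Of these, 41 were tested, 25 were higher and 2 were lower, Slfn9 and Lap3, and the median log2 fold change of the tested ones was 1.52. Those that reached the low-count cutoff in the 3 controls alone numbered 28, of which 17 were higher and 2 lower, with a median of 0.74, against the 12.6% of such genes that were higher overall. Those with the smallest p were Tor3a, at 4.40, 6.73 and 4.81 against 35.2, 37.2 and 49.4 CPM (log2 fold change 2.93, SE 0.25, adjusted p = 8.76e-05), and Shisa5 (1.37, SE 0.13). Slfn2 and Ifitm1, an inhibitor of virus entry, followed at 2.15 (SE 0.26) and 3.06 (SE 0.37). The first listed, Cmpk2 and Herc6, did not pass (0.05, SE 0.68 and -0.49, SE 0.84). Of 16 NF-kappaB components and targets, 12 were tested and none passed by edgeR in either direction, while 3 were higher and 1 lower at an unadjusted p under 0.05 and 1 was higher by DESeq2. Of 10 genes that work with Xaf1 in apoptosis, 1 was higher and 1 was lower, which is near the shares of all tested genes, 13.6% higher and 11.3% lower. Xiap, the binding partner of Xaf1, stood at 29.3, 31.7 and 31.6 against 38.8, 30.5 and 35.7 CPM (log2 fold change 0.18, SE 0.16, adjusted p = 0.464). Casp9 rose by 1.02 on the log2 scale (SE 0.21), while Cycs, cytochrome c, fell by 0.92. Neither passed by edgeR with Y-linked expression as a covariate, a fit described below, where Casp9 was at 0.71 (adjusted p = 0.172) and Cycs at -0.74 (adjusted p = 0.0648).

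**Figure D4:**
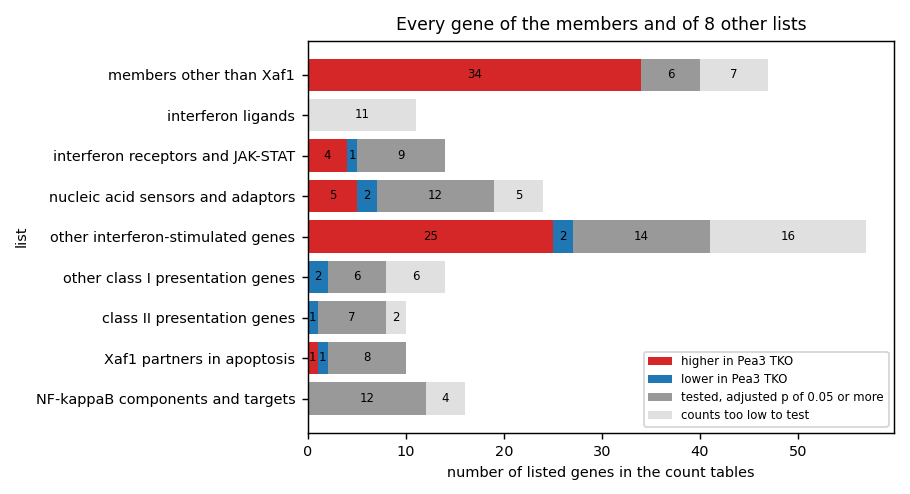
Number of listed genes (horizontal axis) in the 47 genes other than Xaf1 and in 8 other lists, split by result of the edgeR test: higher in Pea3 TKO (red), lower (blue), tested with an adjusted p of 0.05 or more (dark grey) and too few counts to test (light grey). The 47 genes and the 57 other interferon-stimulated genes hold 34 and 25 higher genes, and the NF-kappaB list holds none.

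The level of the response differed among the mutant samples. The 47 genes summed to 454.5, 407.1 and 385.4 CPM in the controls and to 1626, 1179 and 1807 CPM in Pea3 TKO. Without the antigen presentation genes, the remaining 38 summed to 208.8, 156.1 and 160 against 950.9, 633.5 and 1174 CPM. Among the 34 genes called higher, Pea3 TKO sample 3 was the highest mutant in 20, sample 1 in 12 and sample 2 in 2, and sample 2 was the lowest in 27. Xaf1 had its lowest mutant level in the same sample, although its highest was in sample 1.

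Markers of other cell types were set beside these sums. Of 17 leukocyte markers 9 were tested and none passed in either direction by edgeR, by DESeq2 or at an unadjusted p under 0.05, and their sum was 38.2, 1.18 and 30.4 CPM in the controls and 39.9, 5.87 and 1.65 CPM in Pea3 TKO, with ranges that overlapped. The pan-leukocyte marker Ptprc had at most 0.52 CPM in any sample, and the T cell marker Cd3e had no read. Pea3 TKO sample 3, which had the highest interferon sum, was at 0 for 16 of the 17 leukocyte markers, all but Cd68. Its mesenchymal sum was the lowest of the 6 samples without Foxc1 and 270.3 CPM with it, against 235.4 to 296.3 CPM in the controls. Red blood cell genes summed to 199.6, 62.6 and 46.9 CPM in the controls and to 55.1, 143.6 and 380.8 CPM in Pea3 TKO, so the same sample had the highest sum, and none of the 3 tested passed by edgeR, by DESeq2 or at an unadjusted p under 0.05. The endothelial sum was at most 7.76 CPM in any sample. Epidermal markers did move with the groups. The sum of 8 was 1431, 459.4 and 336.4 CPM in the controls and 7220, 6195 and 4998 CPM in Pea3 TKO. All 7 tested were higher, against 13.6% of all tested genes, and Krt14, the one with the smallest p, had a log2 fold change of 2.79 (SE 0.21). The part of the leukocyte, mesenchymal, red blood cell and epidermal markers in the interferon result was not tested, and in bulk samples a larger share of cells of a type and more RNA per cell cannot be told apart.

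**Figure D5:**
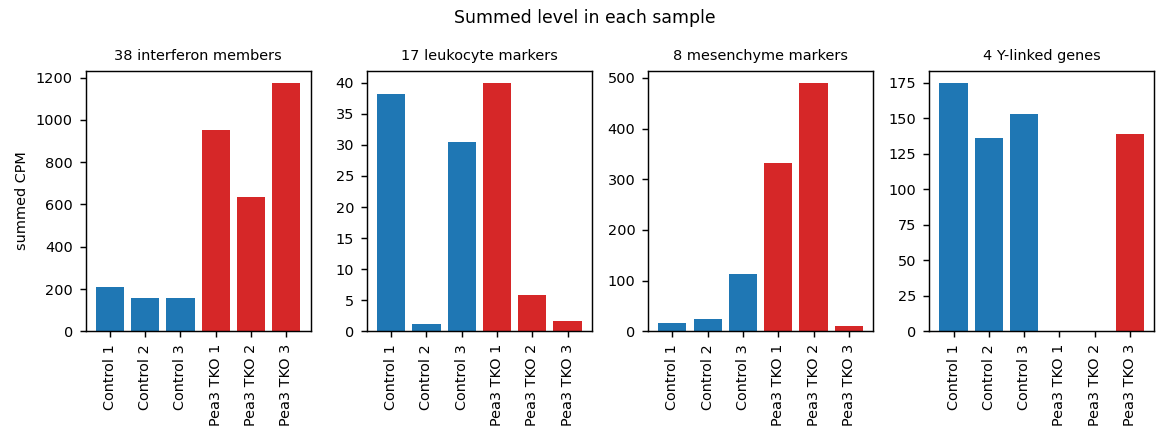
Summed CPM (vertical axis, each panel with its own scale from 0) in each of the 6 samples for 38 interferon genes (the 47 without the antigen presentation genes), 17 leukocyte markers, 8 mesenchymal markers without Foxc1 and 4 Y-linked genes, with controls in blue and Pea3 TKO in red. The interferon sum is highest in Pea3 TKO sample 3 at 1174 CPM, where the leukocyte sum is 1.65 CPM and the Y-linked sum is 139 CPM.

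Because 2 of the 3 mutants were female and the controls male, the comparison was repeated with Y-linked expression as a covariate, and 25 of the genes were called higher and 0 lower. The share of all tested genes called higher in this fit is not given, and the last section gives the number called in either direction. Of the receptor, kinase, Stat and inhibitor list 1 gene, Stat3, was then called higher, and of the sensor and adaptor list 1. Among genes called lower above, Ptpn2 (-0.65, adjusted p = 0.0573), H2-Eb1 (-2.99, adjusted p = 0.0704) and Pdia3 (-0.37, adjusted p = 0.215) lost their calls by edgeR in this fit. H2-T23 (-2.11, adjusted p = 0.00497) and Traf3 (-1.17, adjusted p = 0.0338) kept theirs. An analysis added after the data were seen took Pea3 TKO sample 3 as the only mutant sample against the 3 male controls. The lone sample is assumed there to vary like the controls. The median log2 fold change of the members tested in it was 3.06. Its low-count filter could let genes in through the level of that sample alone, so this median is not read as support. Among the mutants only Pea3 TKO sample 3 had Y-linked expression, so the covariate fit took the genotype difference almost wholly from that sample. The 2 analyses are therefore not separate checks, and the log2 fold change of Stat3 was 1.82 in the first and 1.81 in the second. Under the covariate Irf9, Irf7, Rtp4, Oas1a, Usp18, Ifit1, Isg15, H2-K1 and H2-D1 were called, whereas Stat2, Irf1, Ifih1, Gbp2, Psmb8, Psmb10, Tap1, Tap2 and B2m were not. Of the class I members, only Tapbp, H2-K1 and H2-D1 kept their call. For H2-K1 and H2-D1 a difference of strain cannot be told apart from one of level. The log2 fold changes of the genes that lost their call stayed above 0. Stat2 was at 1.34 (adjusted p = 0.0684) and B2m at 0.68 (adjusted p = 0.142) under the covariate, and Irf1 at 0.82, Tap1 at 1.03 and Tap2 at 1.83.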

How the data were processed

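RNA-seq was performed on laser-captured E14.5 lacrimal gland bud epithelium from 3 control (Le-Cre) and 3 Pea3 TKO samples, grouped by the sample labels. The authors amplified total RNA and deposited 1 table per sample of unnormalized read counts for each gene symbol. The submitters' processing notes name bcl2fastq 2.17, STAR 2.5.2b, featureCounts 1.5.0-p3, DESeq and mm10. The gene annotation and the use of strand are not given in the sources used here, and shared or overlapping genes are therefore uncertain.

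From the deposited counts, filterByExpr of edgeR 4.0.16 (R 4.3.3) kept 13087 of 23420 genes, with totals of 14194775 to 17860140 counts per sample. Counts were TMM-normalized, and the groups were compared by its quasi-likelihood test, fitted on genotype alone, with p-values adjusted by Benjamini-Hochberg over all tested genes. An SE is the size of the log2 fold change over the root of the F value. CPM per kilobase used the union of exons of GENCODE M21 (GRCm38), which matched 48 members. Counting intervals are exact at 95% and, like the floor of 3 counts, cover counting error only. No pair of samples in a group held the same library, with a chi-square per degree of freedom of at least 15.46.

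The members and all gene lists were chosen with earlier results of these data known. The rule asked for values in every sample of Xaf1, of the 25 called members with the smallest p and of the 6 with the highest mean, and for naming, from each other list, at most 4 called genes with the smallest p and the first 2 listed. Values given for other members, and the genes Jak1, Ifngr1, Ifng, Ifnk, Cxcl9, Psmb7, Cd3e, Cd68, Col1a2, Col3a1, Foxc1, Slfn9 and Lap3, fall outside it and were chosen after their values had been seen. Results for some genes are not reported here. Promoter windows are from RefSeq (GRCm38.p6). Alternatives covered DESeq2 1.42.0, other size factors and filters, the replicate number as a block, a Y-linked covariate and leaving out each sample. The scripts were tested on simulated counts. There the edgeR test met its marks and DESeq2 gave more false calls than the mark set for both, which was then kept for edgeR alone.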

Additional observations from a re-analysis of the deposited data

How the results depend on the processing

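The number of members called higher in Pea3 TKO, 34 in the report, was 34 with RLE size factors, 35 with upper-quartile scaling, 37 with DESeq2, 35 without the low-count filter, 34 with a filter of 1 CPM in 3 samples, 37 at an unadjusted p under 0.05 and 32 when a log2 fold change above 1 was also required. The number called lower was 0 under every alternative run. Leaving out single samples gave 27 to 36 called higher, a median log2 fold change of 2.43 to 3.25 around 2.70 (3.25 without control sample 1), 20 to 27 of the other interferon-stimulated genes called higher around 25, and 1948 to 3344 of all genes called around 3268, with the lowest counts of 1948, 1963 and 2072 without control sample 3, control sample 2 and Pea3 TKO sample 2. With the Y-linked covariate 778 of the 13087 tested genes were called in either direction, and 25 members and 19 other interferon-stimulated genes were called higher. With Pea3 TKO sample 3 alone against the controls, added after the data were seen, 597 of all genes were called, 22 members and 13 other interferon-stimulated genes. That fit has fewer samples. Deviations from the group means correlated at 0.144, -0.064 and 0.0454 for samples that share a replicate number and at -0.133 to 0.119 for the others. These correlations are too few to tell whether the numbers pair the samples. A fit with the replicate block called 34 members and 3191 of all genes.

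Over 14 alternatives, 559 values for single members were compared with those reported. In 498 the direction and the side of the threshold were kept, 49 no longer passed, 11 came to pass and 1 reversed, Mx2, which ran from -0.0302 without Pea3 TKO sample 3 to 4.29 without control sample 1. All 34 called members stayed above 0, and 21 of them passed in all 14. For genes with fewer than about 10 reads in the controls, depth limits how far the fold change is known.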
